A study of Mus musculus with 8 samples.

Results

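Of the 42006 probes on the array, 2 carried at least 12 consecutive bases of the perfect vertebrate telomere hexamer, 1 with the G-rich TTAGGG strand and 1 with the C-rich CCCTAA strand. Both runs were exactly 12 bases long, in other words a pair of hexamers, and no probe held a run of 18 bases or more. Members were chosen by their sequence and then selected on measured signals, in a filter that asked for a Cy3 signal well above background on both arrays of at least 1 group and kept 29199 probes, so passing it is no result. Both probes in fact passed it in all 4 groups, on all 8 arrays.

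The arrays were 2-colour Agilent arrays of footpad skin, the hairless paw skin in which mouse sweat glands form, from C57BL6 embryos. The groups were Dicer cKO at E17.5, wild type at E17.5, Dicer cKO at E16.5 and wild type at E16.5, called KO and WT here, with 2 arrays each and footpads of 3 to 5 embryos pooled for an array. cKO is the usual short form of conditional knockout, here of Dicer, the enzyme that cuts microRNA precursors, and the Cre driver is not given in the sources used here. On every array the Cy3 dye marked footpad RNA and the Cy5 dye a common mouse reference RNA, and each stage filled 1 slide, so stage and slide cannot be told apart. The series asks about the need for microRNAs in sweat gland development after induction. The files give each probe only its own identifier and no gene, so Dicer1, telomere genes and markers of the tissue were not checked here.

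Telomeres, the ends of chromosomes, are long tandem arrays of this hexamer bound by the shelterin proteins. They are transcribed from the C-rich strand into telomeric repeat-containing RNA, TERRA, which carries UUAGGG repeats, and short stretches of the hexamer also occur inside chromosomes and transcripts. The labelling kit makes antisense copies of RNA, and probes of such arrays carry the sense sequence. A TTAGGG probe therefore reads transcripts that hold UUAGGG, and a CCCTAA probe reads transcripts that hold CCCUAA. Most bases of each probe lie outside the run, so neither is a probe for the repeat alone.

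The 2 probes are printed 5′ to 3′ with the telomere run in capitals, followed by the 2 probes that missed the rule by 1 base.
Z00013800-1: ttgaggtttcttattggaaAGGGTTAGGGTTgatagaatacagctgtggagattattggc
Z00023497-1: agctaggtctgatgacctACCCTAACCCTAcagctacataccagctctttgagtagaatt
Z00019943-1: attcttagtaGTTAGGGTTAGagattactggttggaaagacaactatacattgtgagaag
Z00021118-1: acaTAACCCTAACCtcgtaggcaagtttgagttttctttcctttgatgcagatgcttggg
In Z00013800-1 the TTAGGG run lay at bases 20 to 31 of 60, and in Z00023497-1 the CCCTAA run lay at bases 19 to 30. Both runs were thus close to the middle of the probe. Z00013800-1 had a GC content of 40.0% and Z00023497-1 one of 45.0%. Neither sequence was found in the promoters or miRNA hairpins of the RefSeq tables (GRCm38.p6), which says nothing about the rest of the genome.

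The second KO array at E17.5 and the first WT array at E16.5 stood apart. The local Cy3 background reached 26390 around some spots of the KO array and 1332.5 on the WT array, whereas no spot passed 52 on the other 6. Spots marked as non-uniform (269 to 364 on an array) were therefore left out before the background was fitted, and neither telomere-repeat probe was marked on any array. Within groups, M, the log2 of the footpad signal over that of the reference, then correlated at r = 0.995 to 0.996 over the tested probes. The share of probes well above background was lowest in KO E17.5 (62.0% and 65.1%) and lay between 66.5% and 72.0% on the other 6 arrays. This share moved with the E17.5 comparison, and its part in the results was not tested.

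The TTAGGG probe was higher in KO than in WT at E17.5. Z00013800-1 had mean Cy3 signals of 165 and 133 in KO E17.5, against 111 and 97.5 in WT E17.5, on local backgrounds of 40.5 to 44. Its M was -0.64 and -0.91 in KO E17.5, against -1.74 and -1.55 in WT E17.5, so the arrays of the genotypes did not overlap (58.3% of all probes showed no overlap in this comparison). The difference was 0.87 ± 0.12 (SE) on the log2 scale, or 1.83-fold higher in KO (95% interval 1.52 to 2.21-fold; limma adjusted p = 0.00276). At this threshold 14.8% of all tested probes were called, so that 1 of the 2 telomere-repeat probes was called in a comparison that called many others. After loess both dyes contributed: the log2 Cy3 level differed by 0.58 and the log2 Cy5 level by -0.30 between KO and WT, although Cy5 held the same reference RNA. Over all tested probes these values were -0.065 for Cy3 and -0.081 for Cy5. In the fit on all spots, marked ones included, the log2 difference was 1.17 and was not called (limma adjusted p = 0.0832).

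At E16.5 the TTAGGG probe did not separate the genotypes. Its mean Cy3 signals were 117 and 112 in KO E16.5, against 114 and 171 in WT E16.5. M was -1.30 and -1.22 in KO E16.5, against -1.09 and -1.39 in WT E16.5, with both KO arrays inside the range of the WT arrays. The log2 difference was -0.026 ± 0.12 (SE) and was not called (95% interval -0.29 to 0.24; limma adjusted p = 0.929), where 2.95% of all probes were called. It changed sign when an array was left out, to 0.014 without the first KO array and to 0.12 without the first WT array. Over both stages, with stage as a term, the log2 difference was 0.42 ± 0.17 (SE) and was not called (95% interval 0.054 to 0.79; limma adjusted p = 0.112; 15.7% of all probes called). Without WT E16.5 replicate 1 it was 0.57 and passed (limma adjusted p = 0.0295).

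The change of the genotype difference between stages was tested directly. For the TTAGGG probe the difference at E17.5 exceeded that at E16.5 by a log2 value of 0.90 ± 0.17 (SE), and its 95% interval ran from 0.52 to 1.28. This difference was not called (limma adjusted p = 0.0809), where 0.308% of all probes were called. It passed with median centring in place of loess (0.89, limma adjusted p = 0.0026) and without WT E16.5 replicate 2 (1.05, limma adjusted p = 0.0478).

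Between stages, the TTAGGG probe moved in opposite directions in the genotypes, a contrast that the direct test did not call. In KO, M averaged -0.77 ± 0.19 on the E17.5 arrays and -1.26 ± 0.06 on the E16.5 arrays (SD, n = 2 each), a rise of 0.49 ± 0.12 (SE) that was called (limma adjusted p = 0.0157; 28.1% of all probes called and 66.0% without overlap). In WT it averaged -1.65 ± 0.13 on the E17.5 arrays and -1.24 ± 0.21 on the E16.5 arrays (SD, n = 2 each), a log2 difference of -0.41 ± 0.12 (SE) that was called too (limma adjusted p = 0.0346; 24.7% of all probes called and 63.9% without overlap). The fall in WT was the less stable of these calls: it did not pass with Cy3 alone (-0.26, limma adjusted p = 0.12), nor without WT E16.5 replicate 1 (-0.26, 0.196), WT E17.5 replicate 1 (-0.32, 0.174), WT E17.5 replicate 2 (-0.50, 0.0543) or either KO E16.5 array (-0.41, 0.0532). The rise in KO did not pass without KO E17.5 replicate 1 (0.35, limma adjusted p = 0.101), KO E16.5 replicate 1 (0.45, 0.0757) or KO E16.5 replicate 2 (0.53, 0.064), and neither call passed in the fit on all spots. In order of mean M the groups ran KO E17.5, WT E16.5, KO E16.5 and WT E17.5. The middle pair differed by less than their spread.

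The CCCTAA probe was brighter in footpad than in the reference on every array, and its genotype difference was smaller. Z00023497-1 had mean Cy3 signals of 2200 and 1705 in KO E17.5, against 1826 and 1543 in WT E17.5. Its M was 3.43 and 3.14 in KO E17.5, against 3.10 and 2.97 in WT E17.5, so the lower KO array lay just above the higher WT array. The log2 difference was 0.25 ± 0.09 (SE), or 1.19-fold, with a 95% interval of 1.03 to 1.37-fold, and was not called (limma adjusted p = 0.109). With 1 array left out it ran from 0.10, without KO E17.5 replicate 1, to 0.39, without KO E17.5 replicate 2, an array that stood apart. In the fit on all spots its sign turned to -0.25.

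At E16.5 the order of the genotypes was the other way for the CCCTAA probe. Its mean Cy3 signals were 1185 and 1286 in KO E16.5, against 1736 and 1772 in WT E16.5. M was 2.75 and 2.83 in KO E16.5, against 2.94 and 2.97 in WT E16.5, so both KO arrays lay below both WT arrays (52.4% of all probes showed no overlap). The log2 difference of -0.17 ± 0.09 (SE) was not called (limma adjusted p = 0.349), with a 95% interval from -0.38 to 0.04. The difference between stages was 0.41 ± 0.13 (SE) and was not called either (95% interval 0.12 to 0.71; limma adjusted p = 0.286). Over both stages the log2 difference was 0.040 ± 0.09 (SE) and was not called (95% interval -0.16 to 0.25; limma adjusted p = 0.804).

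Between stages, the CCCTAA probe rose in KO. M averaged 3.29 ± 0.21 on the KO E17.5 arrays and 2.79 ± 0.05 on the KO E16.5 arrays (SD, n = 2 each), a rise of 0.50 ± 0.09 (SE). This 1.41-fold change was called (limma adjusted p = 0.00508), in a comparison that called 28.1% of all tested probes. The fit on all spots gave -0.0013. In WT the means were 3.04 ± 0.09 on the E17.5 arrays and 2.96 ± 0.02 on the E16.5 arrays (SD, n = 2 each), and the log2 difference of 0.083 ± 0.09 (SE) was not called (limma adjusted p = 0.556), with a 95% interval from -0.13 to 0.29. In order of mean M the groups ran KO E17.5, WT E17.5, WT E16.5 and KO E16.5, and the WT groups differed by less than the spread at E17.5. Both telomere-repeat probes thus had their highest ratio in KO E17.5, while the lowest was in WT E17.5 for the TTAGGG probe and in KO E16.5 for the CCCTAA probe. In bulk skin, fewer cells of a type and less RNA per cell cannot be told apart.

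Each telomere-repeat probe was set beside all other tested probes of its own GC count, as a description. At E17.5 the TTAGGG probe had a log2 difference of 0.87 between KO and WT, whereas the 1695 other probes with 24 G or C bases had a median of 0.014 and 90% of them lay between -0.30 and 0.29. Of these probes 16.6% were called. For the CCCTAA probe the value was 0.25, against a median of -0.00063 over 4862 probes with 27 G or C bases, of which 90% lay between -0.32 and 0.26 and 15.6% were called. The TTAGGG probe thus lay outside the range of most probes of its GC count in this comparison and the CCCTAA probe inside it. In the ratio of footpad to reference the positions were the other way round. The mean M over the 8 arrays was -1.23 for the TTAGGG probe, within the range of -1.61 to 2.59 that held 90% of its GC class. It was 3.02 for the CCCTAA probe, above the range of -1.58 to 2.58 that held 90% of its class.

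Just outside the rule lay the 2 probes with runs of 11 bases, given here with no test. Z00021118-1, with a CCCTAA run, had an M of 0.67 and 0.55 in KO E17.5, against -0.10 and -0.027 in WT E17.5. Its log2 difference between KO and WT of 0.68 stood beside the 0.25 of the 12-base CCCTAA probe. Z00019943-1, with a TTAGGG run, had an M of 0.18 and 0.16 in KO E17.5, against 0.26 and 0.32 in WT E17.5. Its log2 difference of -0.12 stood beside the 0.87 of the 12-base TTAGGG probe. With runs of 10 bases, 16 tested CCCTAA probes had log2 differences at E17.5 from 0.071 to 1.01 with a median of 0.62. The 5 tested TTAGGG probes ran from -0.12 to 0.31 with a median of 0.11. The highest of the TTAGGG values is that of Z00061834-1, whose Cy5 signal was not well above background on any array, so that its ratio rests on a reference at the floor. At E17.5 every tested CCCTAA probe with a run of 10 to 12 bases had a higher mean M in KO. Of all 29020 tested probes, 14910 did. At E16.5, 3 of the 16 with 10 bases did, and 15903 of 29015 over all probes. With median centring, where all probes had a median of -0.048, 14 of these 16 did at E17.5. There 15 did in the fit on all spots, without the second KO array or without the first WT array of E17.5. In the fit on all spots the 12-base CCCTAA probe was also lower in KO (-0.25), and 11850 of all 29199 probes were higher.

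The telomere hexamer was held by a number of probes within the range of others of its composition. A run of 12 bases of any of the other 9 hexamer repeats with 2 T, 1 A and 3 G (or their reverse complements) was held by 0 to 4 probes each, against 2 for the telomere hexamer. In all 0.00476% of probes held a telomere run of 12 bases, and runs of at least 1 hexamer in any frame were held by 3.59% of probes on the TTAGGG strand and 4.77% on the CCCTAA strand.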

How the data were processed

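Gene expression was measured on 8 arrays, 2 for each genotype and stage. Agilent Feature Extraction 9.5.1.1 made the scanner tables, per the file headers, and the deposited intensities used here are each spot's mean signal and local background in both dyes. The authors' series matrix holds log10 values, which matched, for processed signals, log10 Cy3 minus log10 Cy5 with the probe's average log10 Cy5 added back, to within 0.00016 over 24641 probes; its column medians were 2.23 to 2.24.

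After spots marked as non-uniform had been left out, backgrounds were corrected with normexp (offset 50) and arrays loess-normalized in limma 3.58.1 (R 4.3.3), with control spots at weight 0. Outlier spots were dropped and repeated spots averaged. M was fitted with 1 mean for each group, or with stage and genotype as terms over both stages; limma's moderated test was adjusted by Benjamini-Hochberg over all tested probes and called at 0.05. The number of arrays limits the precision. The labels call the 2 arrays of a group biological replicates, each of pooled embryos. On data simulated over 28334 probes for the genotype comparison at E17.5, the test found 28.0% of changes of 1.25-fold, 88.0% at 1.5-fold and 98.8% at 2-fold. These rates are over all probes, whose replicate SD of M had a median of 0.063, against 0.159 for the TTAGGG probe and 0.117 for the CCCTAA probe.

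The members, lists and tests were chosen with earlier results of these data known, among them the distorted background fit on all spots, which is kept as an alternative. Values in every array were given for all telomere-repeat probes. Probes of the same GC count were described without a test. Gene lists for telomere proteins and skin markers needed probe names and were not used here: none of the probe identifiers is in the RefSeq table of 49997 genes.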

Additional observations from a re-analysis of the deposited data

Results flagged for a closer look

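For the CCCTAA probe Z00023497-1 both KO arrays lay above both WT arrays at E17.5 and below them at E16.5. Of all probes, 58.3% showed no overlap at E17.5 and 52.4% at E16.5, so such a separation was common. The KO effect at E17.5 exceeded that at E16.5 by 0.41 ± 0.13 (SE) on the log2 scale, which the direct test did not call (limma adjusted p = 0.286, with a range of 0.115 to 1 over the alternatives).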

How the results depend on the processing

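Over 19 or 20 alternatives for each comparison, the 1.83-fold rise of the TTAGGG probe at E17.5 kept its direction in all, with log2 differences from 0.65 to 1.34, and its call in 19 of 20. Many of these settings keep the E17.5 group means of the report's setting. They are Aquantile, the other filters, the replicate block, the fit on the E17.5 arrays alone and the fits without an E16.5 array. At E17.5 they could change a call but not the size or direction of a difference. The series matrix values largely repeat the processed signals. In the fit on all spots the number of the 2 probes called was 0 at E17.5, 0 for the stage change in WT and 0 for that in KO, against 1, 1 and 2. With Cy3 alone it was 0 for the stage change in WT, and with median centring 1 for the difference between stages, against 0. With 1 array left out it was 0 to 0 at E16.5, 1 to 2 at E17.5, 0 to 1 over both stages, 0 to 1 for the difference between stages, 0 to 1 for the stage change in WT and 1 to 2 for that in KO. Signs turned in few settings. In the fit on all spots the CCCTAA probe had log2 differences of -0.25 at E17.5, -0.20 over both stages, -0.11 for the difference between stages and -0.0013 for the stage change in KO. With median centring it had -0.079 over both stages and -0.022 for the stage change in WT. With 1 array left out it ranged from -0.059 to 0.097 over both stages, and the TTAGGG probe from -0.18 to 0.12 at E16.5. The causes were not tested. Aquantile leaves M as it is and so changed nothing, and a minimum run of 18 bases left no probe.

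Same-numbered arrays did not deviate together (r of -0.258 to 0.173 between groups over 28334 probes). The replicate block changed no call of the 2 probes, with a log2 difference of 0.87 at E17.5 (limma adjusted p = 0.00431) for the TTAGGG probe, and 3315 probes called in all at E17.5 against 4295. Over all tested probes the alternatives called 0 to 1013 at E16.5 (855 in the report's setting), 33 to 4641 at E17.5 (4295), 42 to 5259 over both stages (4566), 0 to 153 for the difference between stages (89), 474 to 7345 for the stage change in WT (7176) and 237 to 8414 for that in KO (8164), with the fewest in the fit on all spots each time.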

Other observations

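Probes with shorter telomere runs were described at E17.5 by strand and by the length of their longest run, a pattern noticed after the values were seen. Among 16 CCCTAA probes with a run of 10 bases, 12 were called higher in KO and 0 lower, where 6.97% of all tested probes were called higher. Among 21 with a run of 9 bases, 10 were called higher and 2 lower, with a median log2 difference of 0.34. With runs of 8 bases the median was 0.079 over 82 probes, and with 7 it was 0.017 over 255. On the TTAGGG strand, 0 of 5 probes with 10 bases and 0 of 14 with 9 bases were called higher, and 0 and 3 were called lower, where 2271 of all 29020 tested probes were called lower. With processed signals 1 of the 5 was called higher and 1 lower. At E16.5 the median of the CCCTAA probes was -0.087 with 10 bases, none of which was called, and -0.099 with 9. Of the 22 with 9 bases, 1 was called lower and 0 higher, where 2.95% of all probes were called. The direct test of the difference between stages called 0 of 16 with 10 bases (smallest limma adjusted p = 0.116). It called 0 of 21 with 9 bases. Over both stages 0 of 16 with 10 bases were called. Of 22 with 9 bases, 2 were called higher and 4 lower over both stages, where 15.7% of all probes were called. No difference between strands or between run lengths was tested. Probes read on the same arrays can move together, so the calls within a set are not independent results.

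The CCCTAA probes with a run of 10 or more bases had little sequence in common: among 19 of them, no pair shared more than 14 bases in a row, the run included. On the TTAGGG strand Z00034770-1 and Z00075128-1 share 53 bases and so count as 1 target. Of the 8-base words of the C-rich strand, CCCTAACC had the highest median at E17.5, 0.56 over 33 probes. Of these, 18 were called higher and 1 lower, where 6.97% of all tested probes were called higher. TAACCCTA had the lowest median, 0.078 over 21 probes, of which 4 were called higher and 2 lower. Called higher were 19 of 38 probes with CCTAACCC, 11 of 25 with ACCCTAAC, 10 of 28 with CTAACCCT and 11 of 36 with AACCCTAA. Called lower were 1, 1, 0 and 3 of them, in the same order. A probe can hold several of these words, so the sets overlap, and no difference between words was tested. The reverse complement of CCCTAACC, GGTTAGGG, had a median of 0.053 over 14 probes, of which 2 were called higher and 1 lower.

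Array by array, the 17 CCCTAA probes with runs of 10 or 11 bases were set beside both telomere-repeat probes. Relative to each probe's own mean over the arrays, the median M was 0.42 and 0.32 in KO E17.5, against -0.30 and -0.24 in WT E17.5, and -0.25 and 0.034 in KO E16.5, against 0.18 and -0.18 in WT E16.5. The arrays of both E16.5 groups overlapped. From array to array the 17 probes moved together. In KO E16.5, 1 of them lay above its own mean on replicate 1 and 10 did on replicate 2. In WT E16.5 it was 15 on replicate 1 and 3 on replicate 2. Their calls are therefore not independent of each other. The TTAGGG probe Z00013800-1 deviated by 0.59 and 0.32 in KO E17.5, against -0.51 and -0.32 in WT E17.5, and by -0.073 and 0.0070 in KO E16.5, against 0.14 and -0.16 in WT E16.5. The CCCTAA probe Z00023497-1 deviated by 0.41 and 0.12 in KO E17.5, against 0.088 and -0.045 in WT E17.5. At E16.5 its values were -0.27 and -0.19 in KO, against -0.073 and -0.05 in WT. For 5 TTAGGG probes with runs of 10 or 11 bases the medians were -0.049 and -0.068 in KO E17.5. Against these stood -0.126 and -0.065 in WT E17.5. At E17.5 the log2 Cy3 level of the 16 CCCTAA probes with 10 bases differed by a median of 0.59 between KO and WT. Their log2 Cy5 level differed by -0.008. As alternatives chosen after seeing the data, the counts called higher were set beside the calls over all probes, 4295 in the report's setting. Of the 16 probes with 10 bases, 12 in the report's setting, 0 were called in the fit on all spots (33 of all probes), 5 with processed signals (2633), 6 with series matrix values (2692), 8 with an offset of 10 (3115), 9 with the replicate block (3315) and 11 with median centring (1690). With 1 array left out the count was 3 without the first KO array of E17.5 (1814), 7 without the second (1748), 3 without the first WT array of E17.5 (1454) and 8 without the second (2948). Of the 21 probes with 9 bases, 10 in the report's setting, 3 were called higher without the first WT array of E17.5 and 7 without either KO array of E17.5. In the fit on all spots 0 of 22 were, with a median of 0.094. The totals in brackets count probes called in either direction. They too were below 4295 in these settings, but did not fall in step with the counts among the 16 probes. Whether these falls are linked was not tested.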
